A study of Mus musculus with 46 samples.

Results

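The lysosome was examined in mouse macrophages through 45 genes, out of 24671 in the deposited table. They were chosen by name as well-known parts of the organelle: 10 cathepsins and legumain, 16 other hydrolases with their activator proteins, 6 membrane proteins, 3 transcription factors of the MiT/TFE family and 10 subunits of the proton pump (V-ATPase). The rule uses no measured value, although it was written with earlier results of these data known, and 45 of 45 were found in the table and passed the filter on low counts. The cells were bone marrow-derived macrophages (BMDM), grown in culture from marrow, and the study asked how different ligands of the liver X receptors (LXR) and estrogen receptors (ER) alter them. The 46 RNA-seq libraries fell into 9 groups: Vehicle (6 libraries) and, with 5 libraries each, 27HC (27-hydroxycholesterol, an oxysterol), GW3965 (a synthetic LXR agonist), GSK2033 (a synthetic LXR antagonist), ICI (the labels' abbreviation, in this field the short name of an ER antagonist), E2 (estradiol), GSK2033 plus 27HC, ICI plus 27HC, and GW3965 plus a second compound. The labels of the last group contradict each other: its titles give 27HC as the added compound, its other labels ICI. That compound is therefore left unnamed here. Doses, times of exposure, and the strain, sex and age of the mice are not in the labels used here, nor is it said whether replicates came from separate animals or cultures, so p-values measure the spread between these libraries, which may be technical.

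Total estimated counts ran from 19354093 to 30921038 per library. Levels are given as CPM (counts relative to the library's total, scaled by TMM factors), and differences as log2 ratios from edgeR's quasi-likelihood fit with their standard error (SE). A gene is said to have risen or fallen only where the Benjamini-Hochberg adjusted p over 13838 tested genes was under 0.05. The macrophage genes were abundant, with Vehicle means of 10407 CPM for Lyz2 (lysozyme), 4354 CPM for Adgre1 (F4/80) and 2931 CPM for Csf1r (the receptor of the macrophage growth factor). The summed level of 8 macrophage genes moved with the treatments, from 20883 to 22816 CPM with Vehicle to 9186 to 9765 CPM with GW3965 plus the second compound. In that combination 6 of the 8 fell and 2 rose, against 24.4% and 25.2% of all tested genes. The 2 were Cd68, from 1192 CPM in Vehicle to 1430 CPM, and Mertk, from 85.1 to 149 CPM. Collagen genes of stromal cells were present too, with 1788 CPM for Col1a1 in Vehicle, while the neutrophil and dendritic cell lists summed to under 3 CPM in every library. The stromal list was uneven: Vehicle held 1101 CPM of Sparc and 80.2 of Pdgfrb, but 6.63 of Pdgfra, 0.930 of Dcn and 0.0595 of Lum. In bulk RNA, fewer cells of a type and less RNA per cell cannot be told apart. The ligand check used the LXR targets Abca1 and Abcg1, both cholesterol exporters. Abca1 was at 394 ± 32.7 CPM (SD, n = 6) with Vehicle. It stood at 988 ± 64.0 CPM in the 27HC group, 2037 ± 174 in the GW3965 group, 71.3 ± 8.80 under GSK2033 and 39.3 ± 2.68 under GSK2033 plus 27HC (SD, n = 5 each). Abcg1 was at 41.2 ± 7.25 CPM with Vehicle (SD, n = 6), 342 ± 15.7 with 27HC, 976 ± 43.0 with GW3965 and 1.34 ± 0.236 with GSK2033 (SD, n = 5 each). With ICI alone the 2 targets differed: Abcg1 was at 110 ± 7.06 CPM and Abca1 at 380 ± 17.0 CPM (SD, n = 5).

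Lysosomes are acidic compartments in which macrophages break down what they engulf. Their enzymes are made as inactive precursors, sorted through the Golgi apparatus and activated at the low pH that the V-ATPase maintains by pumping protons across the membrane. TFEB, TFE3 and MITF are related transcription factors that bind an E-box with the core CACGTG in the promoters of many lysosomal genes and switch them on together when they enter the nucleus. LXR, nuclear receptors for oxysterols, activate cholesterol export, and in macrophages much of the cholesterol they respond to is released in lysosomes from lipoproteins and engulfed cells.

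Because these factors bind that E-box, the promoters of the 45 genes were searched for its longer form, TCACGTG, on both strands, in windows of 250 bases before to 50 after the start in RefSeq on GRCm38.p6. RefSeq lists more than 1 window for some genes, and 46 windows were given for 37 of the 45 members. The motif lay at least once in 11 of the 46 windows (23.9%), 1 window for each of 11 members, against 3.77% of all 32851 windows of the same length. The palindrome TCACGTGA, which holds the motif on both strands and is therefore part of the same matches, lay in 6 of the 46 windows (13.0%), against 0.974% of all windows. Such matches describe letters and not binding. The E-box is known from promoters of many lysosomal genes, and the members were chosen as such genes. A share above that of all windows was thus likely beforehand and is no separate evidence. The windows below are shown because these genes share the motif yet differed in their RNA: Mcoln1 and Atp6v0d1 had calls against Vehicle only upward, Lamp1 and Glb1 only downward, and Lgmn in both directions. Lgmn has a second window (chr12:102439679-102439978) without the motif. Capitals mark each match, and each sequence runs 5′ to 3′ on the strand of its gene.
Mcoln1, chr8:3500269-3500568 (+): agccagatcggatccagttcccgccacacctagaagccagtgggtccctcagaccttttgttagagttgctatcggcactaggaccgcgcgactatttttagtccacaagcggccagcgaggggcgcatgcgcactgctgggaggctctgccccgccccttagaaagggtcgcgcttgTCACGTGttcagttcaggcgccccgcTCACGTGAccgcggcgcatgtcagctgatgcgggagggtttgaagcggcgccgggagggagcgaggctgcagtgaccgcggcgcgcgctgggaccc
Atp6v0d1, chr8:105566015-105566314 (-): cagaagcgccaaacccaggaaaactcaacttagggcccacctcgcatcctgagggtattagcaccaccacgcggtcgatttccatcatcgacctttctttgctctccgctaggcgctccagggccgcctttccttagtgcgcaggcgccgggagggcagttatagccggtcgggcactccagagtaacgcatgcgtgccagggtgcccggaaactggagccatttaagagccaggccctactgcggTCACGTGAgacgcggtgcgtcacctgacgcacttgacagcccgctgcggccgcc
Lamp1, chr8:13158911-13159210 (+): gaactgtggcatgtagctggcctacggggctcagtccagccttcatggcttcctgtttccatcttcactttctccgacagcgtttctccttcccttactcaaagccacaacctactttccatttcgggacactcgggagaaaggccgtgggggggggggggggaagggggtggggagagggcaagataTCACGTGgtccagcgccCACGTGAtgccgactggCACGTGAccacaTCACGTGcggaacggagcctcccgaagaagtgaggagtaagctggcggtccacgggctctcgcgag
Glb1, chr9:114400828-114401127 (+): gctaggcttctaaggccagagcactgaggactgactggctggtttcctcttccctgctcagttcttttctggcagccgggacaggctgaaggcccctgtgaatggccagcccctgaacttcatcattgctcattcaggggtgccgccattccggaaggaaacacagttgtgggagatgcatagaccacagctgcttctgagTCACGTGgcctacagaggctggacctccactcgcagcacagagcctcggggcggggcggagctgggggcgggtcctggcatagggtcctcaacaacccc
Lgmn, chr12:102439043-102439342 (-): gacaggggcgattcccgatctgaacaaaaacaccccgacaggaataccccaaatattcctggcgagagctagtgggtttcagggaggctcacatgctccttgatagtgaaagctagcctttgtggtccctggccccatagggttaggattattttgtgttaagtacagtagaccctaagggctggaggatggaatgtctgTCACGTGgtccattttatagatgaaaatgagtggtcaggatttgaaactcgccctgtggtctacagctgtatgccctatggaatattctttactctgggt
Among the 11 members with the motif, 4 had calls against Vehicle only upward (Atp6v0d1, Atp6v1a, Ctsd and Mcoln1), 2 only downward (Glb1 and Lamp1) and 5 in both directions (Ctsa, Gaa, Gla, Lgmn and Naglu). Over all 45 members the numbers were 14, 10 and 21, so the mix among the 11 was close to that of the whole list.

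The 45 genes did not move as a block. With 27HC 20 rose and 13 fell against Vehicle, where 20.3% of all tested genes rose and 20.0% fell. GW3965 raised 19 and lowered 18 (23.1% and 21.1% of all genes). With GW3965 plus the second compound, 17 were higher and 20 lower (25.2% and 24.4%). The LXR antagonist GSK2033 gave 17 higher and 19 lower (18.4% and 17.9%), and adding 27HC to it gave 19 and 21 (24.1% and 26.4%). ICI gave 23 higher and 10 lower (13.9% and 12.5%), and ICI plus 27HC 21 and 16 (26.6% and 26.4%). E2 gave the fewest calls, with 9 members, 4 higher and 5 lower, where 4.70% of all genes were called in either direction. All 8 comparisons use the same 6 Vehicle libraries, so their counts are not independent of each other.

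Abundant genes are called more easily, and these genes were abundant: the mean level of a member over all libraries ran from 13.6 to 11824 CPM with a median of 254 CPM, against a median of 20.6 CPM over tested genes. Among the 8108 genes at or above the lowest member's mean, 27.8% rose and 23.0% fell with 27HC, 31.3% and 25.0% with GW3965, 25.2% and 23.4% with GSK2033, 19.1% and 16.3% with ICI, and 3.23% and 3.71% with E2. Most changes were small. The median difference over the 45 genes ran from -0.04 with GSK2033 plus 27HC to 0.07 with 27HC on the log2 scale, against at most 0.01 in size over all tested genes. Calls of at least 1.5-fold numbered 0 higher and 1 lower with 27HC (2.96% and 5.88% of all genes), 3 and 3 with GW3965 (3.90% and 7.31%), 4 and 4 with GW3965 plus the second compound (4.93% and 8.79%), 0 and 1 with GSK2033 (2.47% and 2.96%), 2 and 5 with GSK2033 plus 27HC (5.37% and 7.62%), 1 and 1 with ICI (1.48% and 1.84%), 4 and 5 with ICI plus 27HC (5.93% and 9.42%), and 0 and 0 with E2 (0.137% and 0.267%). Over the 8 comparisons with Vehicle, 14 members were called only upward, 10 only downward and 21 in both directions. The same tally was not made over all tested genes, so it cannot be read as particular to these 45.

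**Figure D1:**
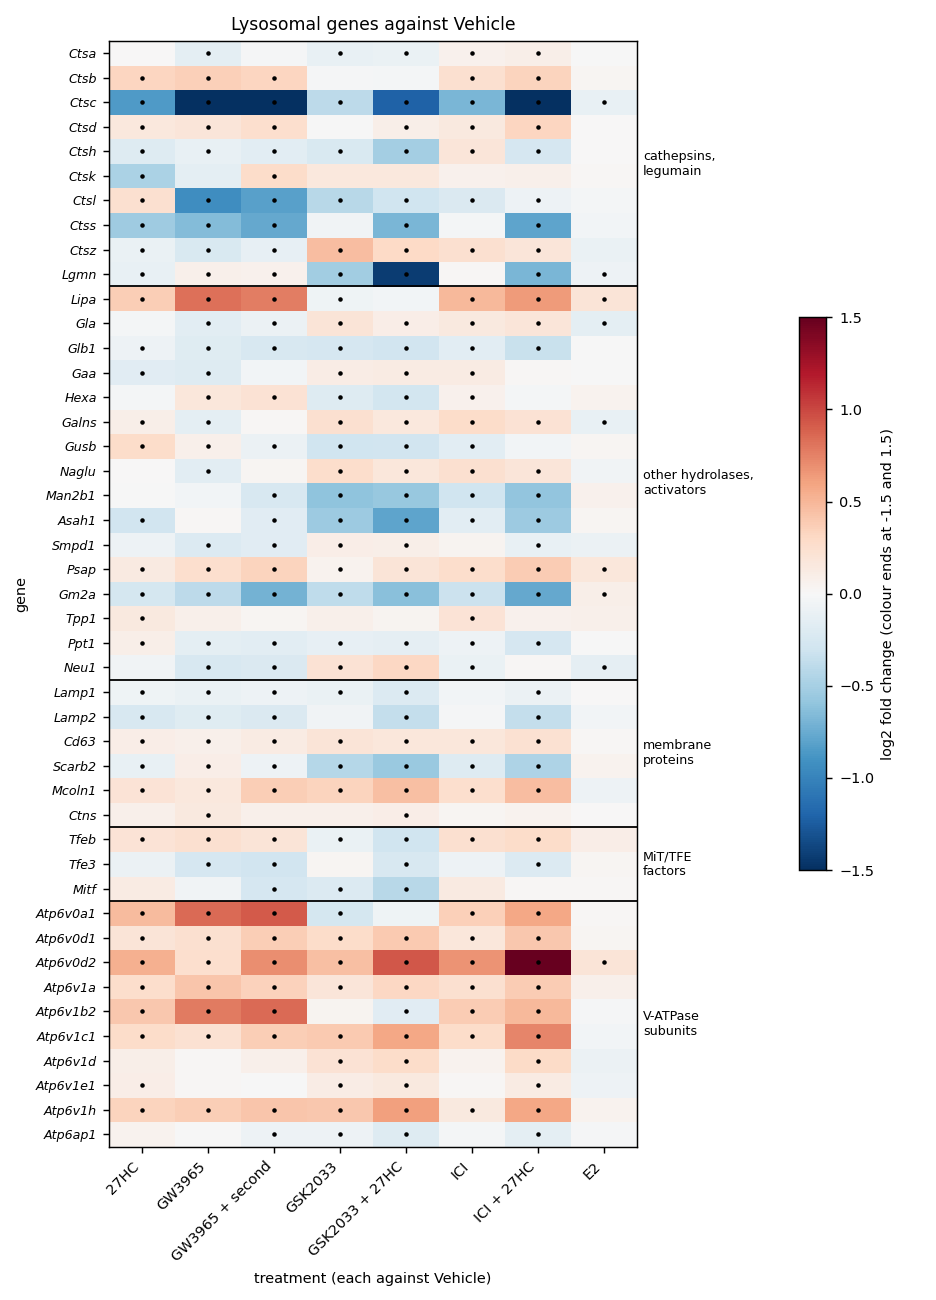
Log2 fold change against Vehicle of the 45 lysosomal genes (rows, by class) in the 8 treatment groups (columns), from edgeR's fit of all 46 libraries, with a dot where the adjusted p was under 0.05. The V-ATPase rows are mostly positive in 7 of the 8 columns, the cathepsin rows are mixed with Ctsc negative in each column, and the E2 column is nearly blank.

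The classes separated in their mean levels. The mean log2 CPM of the 10 V-ATPase subunits was 7.51 ± 0.031 with Vehicle (SD over 6 libraries), 7.78 ± 0.024 with 27HC, 7.83 ± 0.018 with GW3965, 7.74 ± 0.036 with ICI and 8.01 ± 0.022 with ICI plus 27HC (SD over 5 libraries each). In E2 it was 7.52 ± 0.038, and the E2 and Vehicle libraries overlapped. The cathepsin mean went the other way, from 10.15 ± 0.022 with Vehicle to 9.99 ± 0.023 with 27HC, 9.80 ± 0.019 with GW3965 and 9.77 ± 0.025 with GSK2033 plus 27HC. With ICI alone it was 10.15 ± 0.032. A few members carried the fall of that mean: with GW3965 Ctsc, Ctsl and Ctss fell by 1.87, 0.93 and 0.65 on the log2 scale, while the median difference over the class was -0.15, and with ICI plus 27HC the median was -0.0019. The other hydrolases stayed between 8.15 ± 0.022 with GSK2033 plus 27HC and 8.30 ± 0.024 with ICI, and the membrane proteins between 8.03 ± 0.032 with GSK2033 plus 27HC and 8.13 ± 0.026 with GW3965 plus the second compound. As a share of all counts, which the most abundant enzymes dominate, the 45 genes held 4.98% ± 0.0388 with Vehicle (SD, n = 6), 4.87% ± 0.0354 with GSK2033, 5.37% ± 0.0537 with 27HC and 5.61% ± 0.0634 with ICI plus 27HC (SD, n = 5 each).

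**Figure D2:**
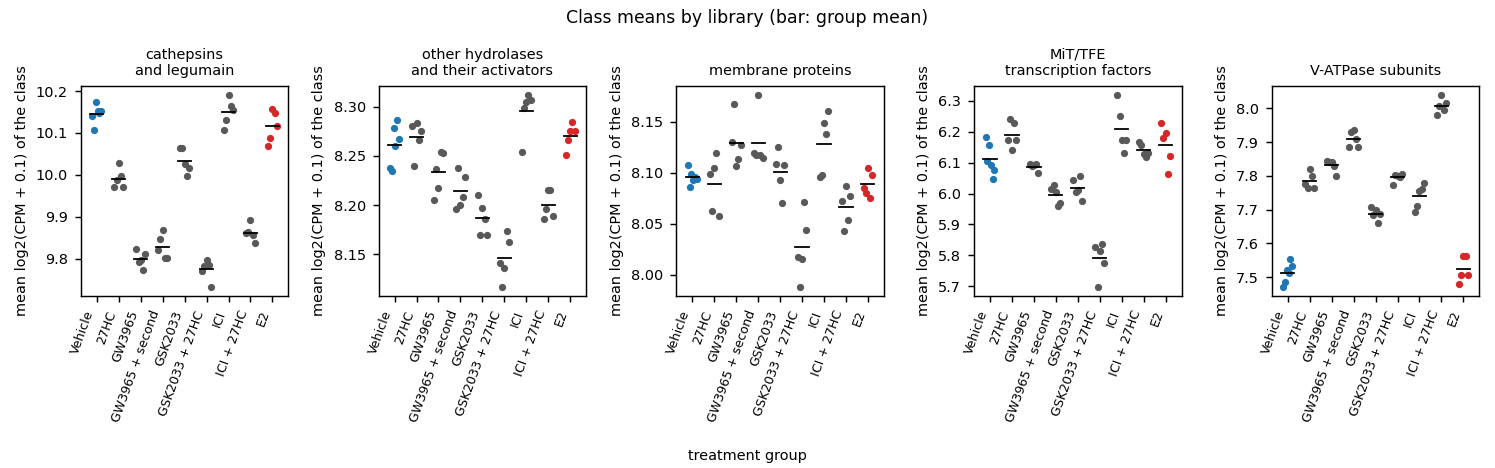
Mean log2 CPM of each class of lysosomal genes in every library, grouped by treatment, with the group mean as a bar. All V-ATPase means of the treated libraries other than E2 lie above the Vehicle libraries, whose mean was 7.51, and the cathepsin means lie below Vehicle in every treatment but ICI and E2.

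The cathepsins are the lysosome's proteases, and legumain is an asparagine-specific protease that helps to activate them. Of these 10 genes 3 rose and 6 fell with 27HC (20.3% and 20.0% of all tested genes), 3 and 6 with GW3965 (23.1% and 21.1%), 1 and 5 with GSK2033 (18.4% and 17.9%), 2 and 6 with GSK2033 plus 27HC (24.1% and 26.4%), 5 and 2 with ICI (13.9% and 12.5%), and 4 and 5 with ICI plus 27HC (26.6% and 26.4%). The widest changes were those of Ctsc (cathepsin C, a dipeptidyl peptidase that activates the serine proteases of immune cell granules, chr7:88278085-88310888 on GRCm38). Its Vehicle libraries held 1070.4 to 1158 CPM with a median of 1098. The 5 libraries with 27HC held 576, 591, 605, 623 and 666 CPM, those with GW3965 287, 294, 300.0, 315 and 317 CPM, and those with GW3965 plus the second compound 231, 232, 240.3, 241 and 245 CPM. Every library of these 3 groups lay below every Vehicle library. The differences were log2 -0.86 ± 0.031 (SE), adjusted p = 1.0e-26 for 27HC, log2 -1.87 ± 0.032 (SE), adjusted p = 2.8e-39 for GW3965, and log2 -2.22 ± 0.033 (SE), adjusted p = 7.3e-42 for the combination.

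Ctsc also fell with GSK2033 and with ICI. GSK2033 libraries held 806, 818, 840.2, 868 and 877 CPM (log2 -0.40 ± 0.031 (SE), adjusted p = 1.1e-14), and ICI libraries 662, 669, 677, 708 and 724 CPM (log2 -0.69 ± 0.031 (SE), adjusted p = 2.4e-22). The GSK2033 libraries lay between Vehicle and 27HC without overlapping either, and the lowest ICI library lay within the range of 27HC. With GSK2033 plus 27HC the level was 479 ± 7.18 CPM (SD, n = 5), and with ICI plus 27HC 271 ± 8.05 CPM (SD, n = 5). In E2 the libraries held 987, 1015, 1021, 1057 and 1066 CPM, just under the lowest Vehicle library (log2 -0.11 ± 0.031 (SE), adjusted p = 0.031), a call that was lost without any 1 of 5 libraries (Vehicle replicates 1 and 3 and E2 replicates 2, 3 and 5). The order of mean levels was Vehicle, E2, GSK2033, ICI, 27HC, GSK2033 plus 27HC, GW3965, ICI plus 27HC and GW3965 plus the second compound. The lowest 3 of these groups held 303, 271 and 238 CPM.

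Ctss and Ctsl, both cysteine proteases that process the invariant chain of MHC class II in antigen-presenting cells, followed different patterns. Ctss (cathepsin S) was at 3450.1 ± 95.8 CPM (SD, n = 6) with Vehicle and fell with 27HC to 2314, 2333, 2342, 2459 and 2477 CPM and with GW3965 to 2158, 2160.4, 2219, 2231 and 2244 CPM (log2 -0.53 ± 0.027 (SE), adjusted p = 1.4e-21, and log2 -0.65 ± 0.027 (SE), adjusted p = 6.4e-25). It was lowest with ICI plus 27HC at 1989 ± 20.3 CPM (SD, n = 5). Neither GSK2033 (log2 -0.06 ± 0.026, adjusted p = 0.1) nor ICI (log2 -0.03 ± 0.026, adjusted p = 0.49) gave a call for Ctss on its own, yet GSK2033 plus 27HC stood at 2141 ± 50.7 CPM (SD, n = 5). Ctsl (cathepsin L) separated the natural from the synthetic LXR ligand: Vehicle libraries held 1397 to 1532 CPM with a median of 1438, 27HC libraries 1627, 1691, 1714, 1730.3 and 1744 CPM, and GW3965 libraries 729, 731, 762, 782 and 785 CPM. The 27HC libraries were all above the Vehicle range and the GW3965 libraries all below it. Ctsl rose with 27HC (log2 0.24 ± 0.030 (SE), adjusted p = 8.0e-09) and fell with GW3965 (log2 -0.93 ± 0.031 (SE), adjusted p = 1.7e-28), and the direct difference between both was log2 1.17 ± 0.032 (SE), adjusted p = 8.2e-31.

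Lgmn (legumain, chr12:102394084-102439813) was marked by the antagonist combinations. Vehicle libraries held 1184 to 1296 CPM with a median of 1211, GSK2033 libraries 816, 841, 847, 868 and 891 CPM, and libraries with GSK2033 plus 27HC 442, 450.2, 454, 460.1 and 466 CPM. ICI libraries held 1212, 1216, 1226, 1243 and 1254 CPM and libraries with ICI plus 27HC 732, 757, 759, 766 and 776 CPM. 27HC alone gave 1070.5, 1124, 1135, 1153 and 1158 CPM, so that 27HC on its own lay just below the Vehicle range while both combinations lay far below it. Lgmn fell with GSK2033 (log2 -0.52 ± 0.022 (SE), adjusted p = 1.6e-23), with GSK2033 plus 27HC (log2 -1.42 ± 0.023 (SE), adjusted p = 4.2e-40) and with ICI plus 27HC (log2 -0.69 ± 0.022 (SE), adjusted p = 5.8e-29), and ICI alone gave no call (log2 0.01 ± 0.022, adjusted p = 0.75). The effect of 27HC on Lgmn beside GSK2033 minus its effect alone was log2 -0.79 ± 0.032 (SE), adjusted p = 1.0e-23, and beside ICI log2 -0.59 ± 0.032 (SE), adjusted p = 5.7e-19. The upward calls of Lgmn were small, at 0.07 ± 0.022 with GW3965 and 0.07 ± 0.022 with GW3965 plus the second compound. The first was lost without the filter on low counts and the second without replicate 2 of that combination.

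Ctsk (cathepsin K, the collagen-degrading protease best known from osteoclasts) was the least abundant member per kilobase of transcript. Vehicle libraries held 12.0 to 14.4 CPM with a median of 13.4, 27HC libraries 8.78, 8.85, 9.40, 10.2 and 10.6 CPM, and libraries with GW3965 plus the second compound 15.4, 15.4, 15.6, 16.8 and 17.5 CPM. Ctsk fell with 27HC (log2 -0.47 ± 0.076 (SE), adjusted p = 1.3e-06) and rose with GW3965 plus the second compound (log2 0.28 ± 0.073 (SE), adjusted p = 0.0012), while the other 6 groups gave no call. Osteoclast markers were uneven: group means were at most 0.00869 CPM for Calcr and 0.441 CPM for Ocstamp, while Vehicle held 109 CPM of Mmp9, 80.3 of Tnfrsf11a, 54.8 of Nfatc1 and 25.9 of Acp5. The 10 osteoclast genes summed to 263 to 301 CPM in Vehicle, 244 to 263 CPM in 27HC and 153 to 169 CPM with GW3965 plus the second compound. Stromal cells also make cathepsin K. The 9 stromal genes summed to 4445 to 5203 CPM in Vehicle, 3459.9 to 3910.3 CPM in 27HC and 2858 to 3442 CPM with GW3965 plus the second compound. Col1a1, Col1a2 and Sparc were the highest of the 9 in Vehicle, while Dcn and Lum were nearly absent. The part of either cell type in the Ctsk result was not tested.

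The most abundant cathepsins moved upward and by little. Ctsd (cathepsin D, an aspartic protease) was at 9795 ± 219.6 CPM (SD, n = 6) with Vehicle, 10888 ± 307 CPM (SD, n = 5) with 27HC and 12295 ± 463 CPM (SD, n = 5) with ICI plus 27HC, a difference of log2 0.33 ± 0.023 (SE), adjusted p = 7.7e-17. Ctsb (cathepsin B, a cysteine protease) was at 10433 ± 279.9 CPM (SD, n = 6) with Vehicle and 13412 ± 194 CPM (SD, n = 5) with GW3965 (log2 0.36 ± 0.017 (SE), adjusted p = 7.5e-23). Ctsb differed little from Vehicle with GSK2033 (log2 -0.02, 95% interval -0.05 to 0.02) and with GSK2033 plus 27HC (log2 -0.02, interval -0.06 to 0.01), although 27HC alone raised it by 0.33 ± 0.017 on the log2 scale. Ctsz (cathepsin Z, a carboxypeptidase) was the only gene of the class called higher with GSK2033 (log2 0.46 ± 0.032), rose with ICI as 4 others did (log2 0.24 ± 0.032), and fell with GW3965 (log2 -0.22 ± 0.032). Ctsh (cathepsin H, an aminopeptidase) fell most with GSK2033 plus 27HC (log2 -0.51 ± 0.027 (SE), adjusted p = 1.0e-20) and rose with ICI (log2 0.19 ± 0.027 (SE), adjusted p = 2.8e-07). Ctsa (a carboxypeptidase that protects other lysosomal enzymes) ranged over 1.18-fold between group means. Its exons overlap those of Pltp on the opposite strand, and those of Ctsd overlap Gm49369 on the same strand. The libraries were stranded, but whether the counting used strand is not given in the sources used here.

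**Figure D3:**
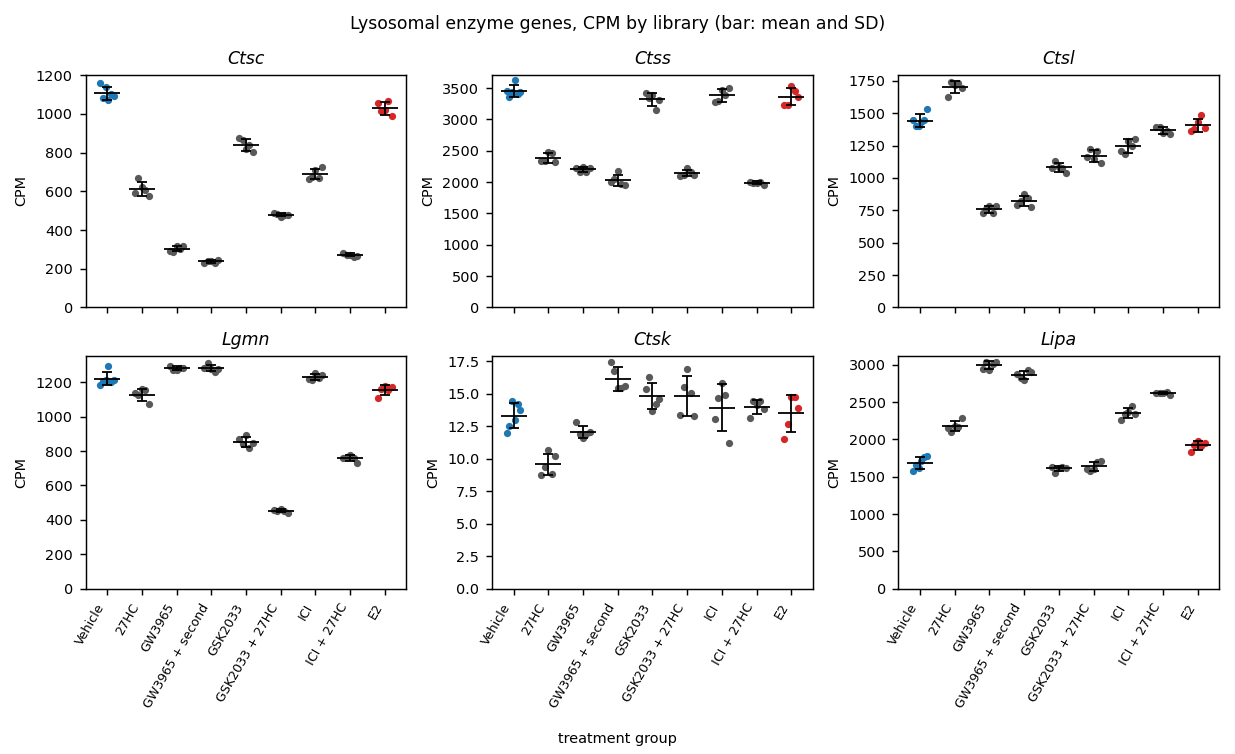
CPM, on linear axes from 0, in every library for 6 lysosomal enzymes, grouped by treatment, with bars for the group mean and SD. Ctsc falls in steps from about 1108 CPM with Vehicle to 238 CPM with GW3965 plus the second compound, Ctsl separates 27HC from GW3965, and Lgmn is lowest with GSK2033 plus 27HC.

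The other hydrolases cut lipids, sugars and proteins, and 16 of these genes or their activators were measured. With 27HC 6 rose and 4 fell (20.3% and 20.0% of all tested genes), with GW3965 4 and 9 (23.1% and 21.1%), with GSK2033 7 and 8 (18.4% and 17.9%), with GSK2033 plus 27HC 7 and 7 (24.1% and 26.4%), with ICI 8 and 7 (13.9% and 12.5%), and with ICI plus 27HC 5 and 6 (26.6% and 26.4%). The 4 of 16 that fell with 27HC and the 4 of 16 that rose with GW3965 were shares near those of all genes. Lipa (lysosomal acid lipase, which frees cholesterol and fatty acids from lipoprotein lipids, chr19:34492318-34527474) rose furthest. Vehicle libraries held 1577 to 1784 CPM with a median of 1687, 27HC libraries 2096, 2150.4, 2166, 2183 and 2286 CPM, and GW3965 libraries 2926, 2950.0, 3015, 3033 and 3039.9 CPM. GW3965 lay above 27HC and 27HC above Vehicle with no overlap. The differences from Vehicle were log2 0.83 ± 0.026 (SE), adjusted p = 1.3e-29 for GW3965 and log2 0.37 ± 0.026 (SE), adjusted p = 2.2e-16 for 27HC, and Lipa was lower with 27HC than with GW3965 by log2 -0.46 ± 0.027 (SE), adjusted p = 1.3e-18.

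Lipa was also higher with ICI and with E2. ICI libraries held 2259, 2342, 2345, 2373 and 2443 CPM (log2 0.48 ± 0.026 (SE), adjusted p = 9.3e-20) and E2 libraries 1833, 1914, 1920.2, 1949.8 and 1986 CPM (log2 0.19 ± 0.026 (SE), adjusted p = 7.8e-07), so every library of both groups lay above the highest Vehicle library. ICI plus 27HC reached 2619 ± 12.2 CPM (SD, n = 5). With GSK2033 plus 27HC the level was 1642 ± 59.8 CPM (SD, n = 5), no call against Vehicle (log2 -0.04 ± 0.026, adjusted p = 0.23). GSK2033 alone gave a small call (log2 -0.07 ± 0.026, adjusted p = 0.045), which was lost under 14 of 18 alternatives, among them the omission of any 1 of the 5 GSK2033 libraries or of Vehicle replicate 4, 5 or 6.

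Enzymes and activators of sphingolipid breakdown moved apart. Psap, the precursor of the saposins that present sphingolipids to their enzymes, was called higher in 8 of 8 comparisons with Vehicle, from 7099 ± 90.4 CPM (SD, n = 6) to 9241 ± 252 CPM (SD, n = 5) with ICI plus 27HC (log2 0.38 ± 0.018 (SE), adjusted p = 2.0e-22). The smallest of its rises was with GSK2033 (log2 0.06 ± 0.018, adjusted p = 0.015), and that call was lost without the filter on low counts. Gm2a, the activator protein for ganglioside breakdown, fell in 7 comparisons, from 283 ± 8.38 CPM (SD, n = 6) to 163, 166, 167, 168 and 169 CPM with ICI plus 27HC and 168, 169, 172, 178 and 179 CPM with GW3965 plus the second compound. All libraries of both groups were below the lowest Vehicle library, at 274 CPM. Asah1 (acid ceramidase) fell most with GSK2033 plus 27HC, from 587 ± 15.6 CPM (SD, n = 6) to 340.3 ± 9.25 CPM (SD, n = 5) (log2 -0.79 ± 0.026 (SE), adjusted p = 1.4e-28), and with GSK2033 alone to 402 ± 6.64 CPM (SD, n = 5), while GW3965 gave no call (log2 0.02 ± 0.025, adjusted p = 0.67). Smpd1 (acid sphingomyelinase) ranged over 1.23-fold between group means.

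Among the sugar-cutting enzymes, Man2b1 (alpha-mannosidase) fell with GSK2033 to 380.1, 388, 388, 391 and 399.8 CPM, with GSK2033 plus 27HC to 387, 393, 395, 408 and 410.3 CPM and with ICI plus 27HC to 377, 392, 395, 398 and 401 CPM, from 579 to 598 CPM with a median of 591 in Vehicle. The 3 groups overlapped one another and none overlapped Vehicle. Man2b1 also fell with ICI alone (462 to 487 CPM) and with GW3965 plus the second compound (479 to 518 CPM), again without overlapping Vehicle. For Man2b1 neither 27HC (log2 -0.01 ± 0.023, adjusted p = 0.86) nor GW3965 (log2 -0.04 ± 0.023, adjusted p = 0.18) gave a call. Glb1 (beta-galactosidase) fell in 7 of 8 comparisons by no more than 1.26-fold, and its call with 27HC (log2 -0.07 ± 0.026) was lost without any 1 of 4 libraries (Vehicle replicate 3 and 27HC replicates 2, 3 and 5). Gusb (beta-glucuronidase) rose with 27HC by 0.28 ± 0.022 and fell with GSK2033 by -0.30 ± 0.023 on the log2 scale. Gla, Galns and Naglu (alpha-galactosidase, a sulfatase and an N-acetylglucosaminidase) fell with GW3965 and rose with GSK2033 and ICI: for Naglu the log2 differences were -0.16 ± 0.031, 0.27 ± 0.030 and 0.24 ± 0.030. Neu1 (sialidase) fell with GW3965 (log2 -0.24 ± 0.030) and rose with GSK2033 plus 27HC (log2 0.31 ± 0.029). Hexa (beta-hexosaminidase, alpha chain) went the opposite way, up by 0.17 ± 0.020 with GW3965 and down by -0.27 ± 0.020 with GSK2033 plus 27HC.

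The remaining hydrolases changed little. Gaa (acid alpha-glucosidase, which digests glycogen) ranged over 1.24-fold between group means, Ppt1 (which removes palmitate from proteins) over 1.26-fold, and Tpp1 (tripeptidyl peptidase) over 1.15-fold. For Tpp1 the pooled SD between libraries of a group was 0.10 on the log2 scale, and its call with 27HC was lost without any 1 of 8 of the 11 libraries compared (all but Vehicle replicates 5 and 6 and 27HC replicate 3). Ppt1 shares exon bases with the opposite-strand gene Cap1, which had more counts.

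The membrane proteins line the lysosome and move ions, nutrients and enzymes across or to it. Lamp1, an abundant coat glycoprotein, was at 2137 ± 56.8 CPM (SD, n = 6) with Vehicle and 1851 ± 51.6 CPM (SD, n = 5) with GSK2033 plus 27HC, its lowest group (log2 -0.21 ± 0.021 (SE), adjusted p = 1.8e-11). Its calls were all downward, that with 27HC (log2 -0.07 ± 0.021) was lost without 27HC replicate 5, and its group means spanned 1.16-fold. Lamp2 fell further, by -0.36 ± 0.024 with GSK2033 plus 27HC and -0.36 ± 0.024 with ICI plus 27HC on the log2 scale. Scarb2, a receptor that carries beta-glucocerebrosidase to the lysosome, fell from 276 to 304 CPM with a median of 282 in Vehicle to 190.1, 191, 192, 198 and 199 CPM with GSK2033 plus 27HC (log2 -0.56 ± 0.020 (SE), adjusted p = 8.9e-27), with no overlap, and was at 306 ± 2.42 CPM (SD, n = 5) with GW3965. Mcoln1 (mucolipin, a cation channel that releases lysosomal calcium) rose in each comparison with Vehicle but that of E2: Vehicle libraries held 40.1 to 45.3 CPM with a median of 44.1 and those with ICI plus 27HC 57.8, 58.0, 59.4, 60.3 and 63.5 CPM (log2 0.46 ± 0.043 (SE), adjusted p = 1.2e-12). Cd63 (a tetraspanin) rose by at most 0.23 ± 0.030 on the log2 scale, with ICI plus 27HC. Its call with GW3965 (log2 0.07 ± 0.030) was lost without any 1 of 9 of the 11 libraries (all but Vehicle replicate 5 and GW3965 replicate 4). Ctns (the cystine exporter) ranged over 1.11-fold, the narrowest of the 45 genes.

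The 3 transcription factors were expressed at modest levels and did not move together. Tfeb was at 29.3 to 32.2 CPM with a median of 30.9 in Vehicle, 34.5, 35.2, 35.5, 35.5 and 36.7 CPM with 27HC, 33.8, 34.9, 36.6, 37.9 and 38.3 CPM with GW3965 and 24.0, 24.6, 25.5, 25.7 and 25.7 CPM with GSK2033 plus 27HC. It rose with 27HC (log2 0.20 ± 0.041 (SE), adjusted p = 6.1e-05), GW3965 (log2 0.23 ± 0.041 (SE), adjusted p = 4.7e-06), ICI (log2 0.25 ± 0.041 (SE), adjusted p = 4.7e-06) and ICI plus 27HC (log2 0.28 ± 0.041 (SE), adjusted p = 1.1e-07). It fell with GSK2033 plus 27HC (log2 -0.30 ± 0.042 (SE), adjusted p = 4.7e-08), and the small call with GSK2033 alone (log2 -0.10 ± 0.041) was lost under 12 of 18 alternatives, including the omission of Vehicle replicate 1, 3, 4 or 5 or of GSK2033 replicate 2, 4 or 5. Mitf fell with GSK2033 plus 27HC from 63.4 ± 4.03 CPM (SD, n = 6) to 47.4 ± 2.79 CPM (SD, n = 5) (log2 -0.42 ± 0.057 (SE), adjusted p = 2.8e-08). Tfe3 fell with GW3965 (log2 -0.25 ± 0.053) and with GSK2033 plus 27HC (log2 -0.25 ± 0.053). All 3 factors fell with GSK2033 plus 27HC, where 26.4% of all tested genes fell. In that group 7 of the 10 proton pump subunits rose and 2 fell (24.1% and 26.4% of all tested genes). A link between the factors and the subunits was not tested. RNA levels do not show where these factors are in the cell.

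The V-ATPase has a cytosolic part that splits ATP (V1, with the subunits A to H) and a membrane part that carries protons (V0, with a and d among its subunits). Of the 10 genes measured, 8 rose and 0 fell with 27HC (20.3% and 20.0% of all tested genes), 7 and 0 with GW3965 (23.1% and 21.1%), 7 and 1 with GW3965 plus the second compound (25.2% and 24.4%), 7 and 2 with GSK2033 (18.4% and 17.9%), 7 and 2 with GSK2033 plus 27HC (24.1% and 26.4%), 7 and 0 with ICI (13.9% and 12.5%), 9 and 1 with ICI plus 27HC (26.6% and 26.4%), and 1 and 0 with E2 (4.70% in either direction). Atp6v0d2 (chr4:19876841-19922605), the d subunit isoform that osteoclasts and some macrophages use beside the ubiquitous Atp6v0d1, rose in 8 of 8. Vehicle libraries held 31.8 to 36.3 CPM with a median of 35.0, GSK2033 plus 27HC 63.4, 65.2, 66.7, 67.2 and 67.6 CPM, and ICI plus 27HC 95.4, 95.8, 97.2, 98.1 and 102 CPM. The groups with 27HC, GSK2033 and ICI alone lay in between at 50.1, 47.5 and 55.3 CPM, and E2 at 39.8 ± 3.29 CPM (SD, n = 5), which touched the Vehicle range. Atp6v0d2 differed from Vehicle by log2 1.497 ± 0.040 (SE), adjusted p = 5.4e-32 with ICI plus 27HC and by log2 0.20 ± 0.042 (SE), adjusted p = 0.0013 with E2. Of the 10 osteoclast genes 7 were tested, and with ICI plus 27HC 1 rose and 5 fell. The one that rose was Itgb3 (an integrin subunit), at 7.70 CPM in Vehicle, 9.98 with 27HC, 13.6 with GSK2033 plus 27HC and 17.2 with ICI plus 27HC. Acp5 (an acid phosphatase) was among those that fell, with 25.9 CPM in Vehicle, 16.3 with ICI plus 27HC and 6.35 with GW3965. The part of such cells in the Atp6v0d2 result was not tested.

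Atp6v0d1, the ubiquitous d subunit, rose by less, from 202 ± 6.05 CPM (SD, n = 6) to 268 ± 13.8 CPM (SD, n = 5) with ICI plus 27HC (log2 0.40 ± 0.029 (SE), adjusted p = 4.0e-16). The nucleotide-binding B subunit Atp6v1b2 and the membrane subunit Atp6v0a1 were highest with the synthetic agonist. For Atp6v1b2 the Vehicle libraries held 457 to 501 CPM with a median of 481, GW3965 819, 821, 824, 826 and 832 CPM, 27HC 614, 624, 631, 643 and 656 CPM and GSK2033 plus 27HC 413, 421, 429, 431 and 435 CPM. It rose with GW3965 (log2 0.78 ± 0.024 (SE), adjusted p = 9.4e-30) and fell with GSK2033 plus 27HC (log2 -0.17 ± 0.024 (SE), adjusted p = 1.1e-07). Atp6v0a1 was at 199 ± 10.4 CPM (SD, n = 6) with Vehicle, 359 ± 10.5 CPM (SD, n = 5) with GW3965 (log2 0.85 ± 0.048 (SE), adjusted p = 1.2e-19) and 166 ± 13.7 CPM (SD, n = 5) with GSK2033 (log2 -0.26 ± 0.049 (SE), adjusted p = 2.9e-05). These 2 subunits had their lowest group mean with GSK2033, alone or with 27HC.

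The other subunits differed in where they were highest. Atp6v1c1 (subunit C, at the joint of both parts) rose with GSK2033 by 0.39 ± 0.024, with GSK2033 plus 27HC by 0.58 ± 0.023 and with ICI plus 27HC by 0.73 ± 0.023 on the log2 scale, against 0.23 ± 0.024 with GW3965. Atp6v1h (subunit H) rose most with GSK2033 plus 27HC, from 117 ± 3.14 CPM (SD, n = 6) to 179 ± 5.23 CPM (SD, n = 5) (log2 0.61 ± 0.029 (SE), adjusted p = 8.3e-23). Atp6v1a (the catalytic A subunit) rose in 7 comparisons, at most by 0.42 ± 0.028 with GW3965. Atp6v1d and Atp6v1e1 (stalk subunits) rose with GSK2033 (log2 0.22 ± 0.041 and 0.11 ± 0.037) and gave no call with GW3965. The Atp6v1e1 call with GSK2033 was lost without GSK2033 replicate 2, and its call with 27HC (log2 0.10 ± 0.037) without any 1 of 5 libraries (Vehicle replicates 1, 2 and 3 and 27HC replicates 3 and 4). Atp6ap1, an accessory protein of the pump, fell with GSK2033 plus 27HC (log2 -0.20 ± 0.025 (SE), adjusted p = 4.1e-09) and rose nowhere.

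**Figure D4:**
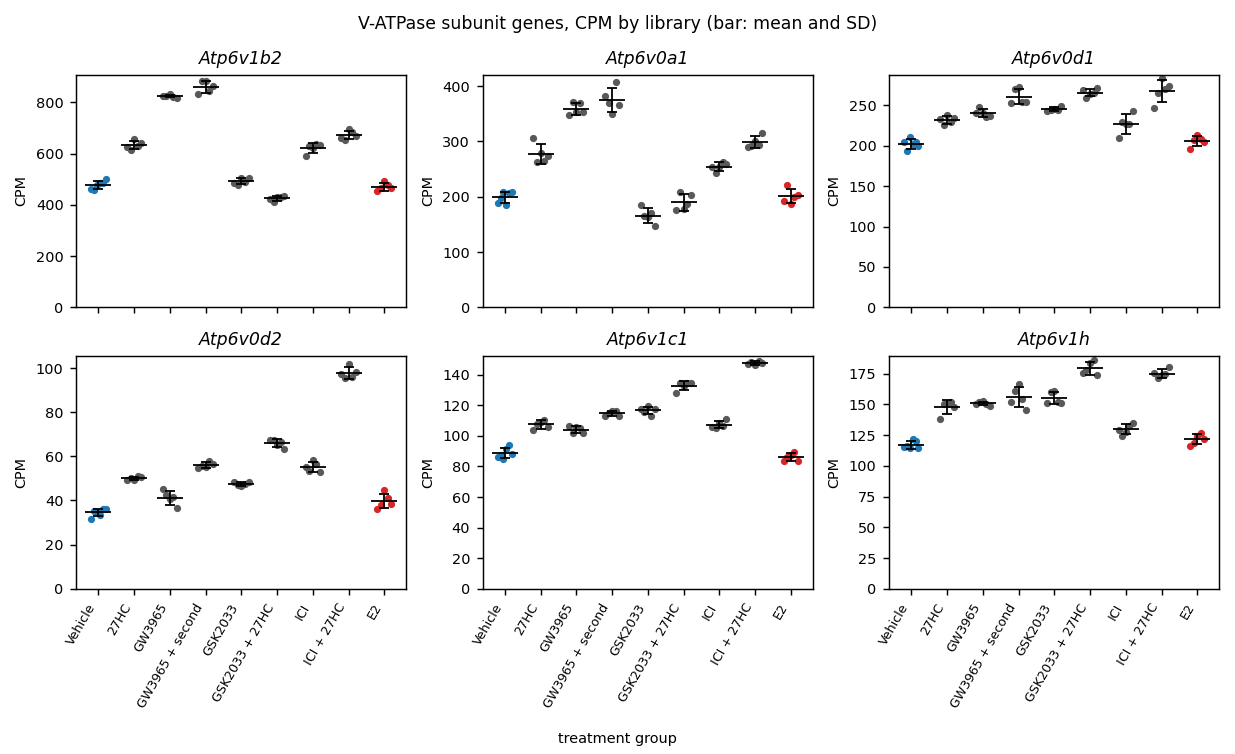
CPM, on linear axes from 0, of 6 V-ATPase subunit genes in every library, grouped by treatment, with bars for the group mean and SD. Atp6v0d2 is highest with ICI plus 27HC (95.4 to 102 CPM against 31.8 to 36.3 CPM with Vehicle), while Atp6v1b2 and Atp6v0a1 are highest in both groups that received GW3965.

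27HC and GW3965, the natural and the synthetic LXR ligand, were compared directly. Of the 45 genes 17 were higher and 11 lower with 27HC than with GW3965, where 12.8% and 12.5% of all genes differed. Besides Ctsl, Ctsc was higher with 27HC (log2 1.02 ± 0.033 (SE), adjusted p = 2.3e-28). Lower with 27HC were Lipa, Atp6v1b2 (log2 -0.38 ± 0.025 (SE), adjusted p = 9.6e-17) and Atp6v0a1 (log2 -0.37 ± 0.050 (SE), adjusted p = 6.5e-08). For Ctsb and Ctsd the difference was small, with 95% intervals of -0.07 to 0.00 and -0.07 to 0.02 on the log2 scale. Doses are not in the labels, so a difference between compounds may also be one of dose. Adding the second compound to GW3965 gave 13 higher and 9 lower genes (7.93% and 9.56% of all genes), led by Atp6v0d2 (log2 0.44 ± 0.043 (SE), adjusted p = 3.8e-11) and Ctsk (log2 0.42 ± 0.077 (SE), adjusted p = 4.6e-05) upward and Ctsc (log2 -0.35 ± 0.033 (SE), adjusted p = 1.6e-11) and Gm2a (log2 -0.31 ± 0.023 (SE), adjusted p = 1.5e-14) downward.

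Adding GSK2033 to 27HC moved 14 of the 45 genes up and 25 down against 27HC alone (21.1% and 21.7% of all genes). Lgmn fell most (log2 -1.31 ± 0.023 (SE), adjusted p = 1.9e-38), and Ctsk rose most (log2 0.63 ± 0.078 (SE), adjusted p = 3.5e-09). Gusb (log2 -0.57 ± 0.024), Man2b1 (log2 -0.56 ± 0.024), Atp6v1b2 (log2 -0.57 ± 0.026) and Tfeb (log2 -0.50 ± 0.043) fell as well. Against GSK2033 alone, 27HC on top of it gave 11 higher and 18 lower (17.1% and 18.8% of all genes). Ctsc (log2 -0.81 ± 0.032) and Ctss (log2 -0.63 ± 0.028) fell with 27HC in the presence of GSK2033, and Atp6v0d2 rose (log2 0.48 ± 0.042). For Lipa the effect of 27HC in the presence of GSK2033 was log2 0.03 with a 95% interval of -0.03 to 0.08, against 0.37 ± 0.026 without it.

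Adding ICI to 27HC gave 19 higher and 13 lower members than 27HC alone (16.8% and 17.4% of all genes), with Atp6v0d2 (log2 0.96 ± 0.042 (SE), adjusted p = 2.1e-23) and Ctsk (log2 0.55 ± 0.079 (SE), adjusted p = 2.2e-07) up and Ctsc (log2 -1.17 ± 0.033 (SE), adjusted p = 1.9e-30) and Man2b1 (log2 -0.58 ± 0.024 (SE), adjusted p = 5.8e-24) down. Against ICI alone, ICI plus 27HC gave 17 higher and 15 lower (19.7% and 20.7% of all genes). There Ctsc fell by 1.34 ± 0.033 and Ctss by 0.77 ± 0.028 on the log2 scale, and Atp6v1c1 rose by 0.46 ± 0.024.

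Whether 27HC acted differently in the presence of the antagonists was tested as an interaction, the effect of 27HC with the antagonist minus its effect without. With GSK2033 3 members had a positive and 15 a negative interaction (9.34% and 10.3% of all genes), and with ICI 4 and 20 (7.39% and 9.97%). Negative values mean that 27HC raised the gene less, or lowered it more, beside the antagonist. After Lgmn, the largest with GSK2033 was Atp6v1b2 (log2 -0.61 ± 0.035 (SE), adjusted p = 2.8e-18), followed by Ctsk in the positive direction (log2 0.48 ± 0.11 (SE), adjusted p = 8.2e-04). With ICI the interaction of Ctsc was log2 -0.49 ± 0.044 (SE), adjusted p = 6.1e-12, while with GSK2033 that of Ctsc was 0.04 ± 0.044 (adjusted p = 0.56). Atp6v0d2 had a positive interaction with ICI (log2 0.29 ± 0.058 (SE), adjusted p = 2.1e-04) and none called with GSK2033 (log2 -0.06 ± 0.059, adjusted p = 0.57). The interactions share the Vehicle and 27HC libraries, so they are not independent of each other.

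**Figure D5:**
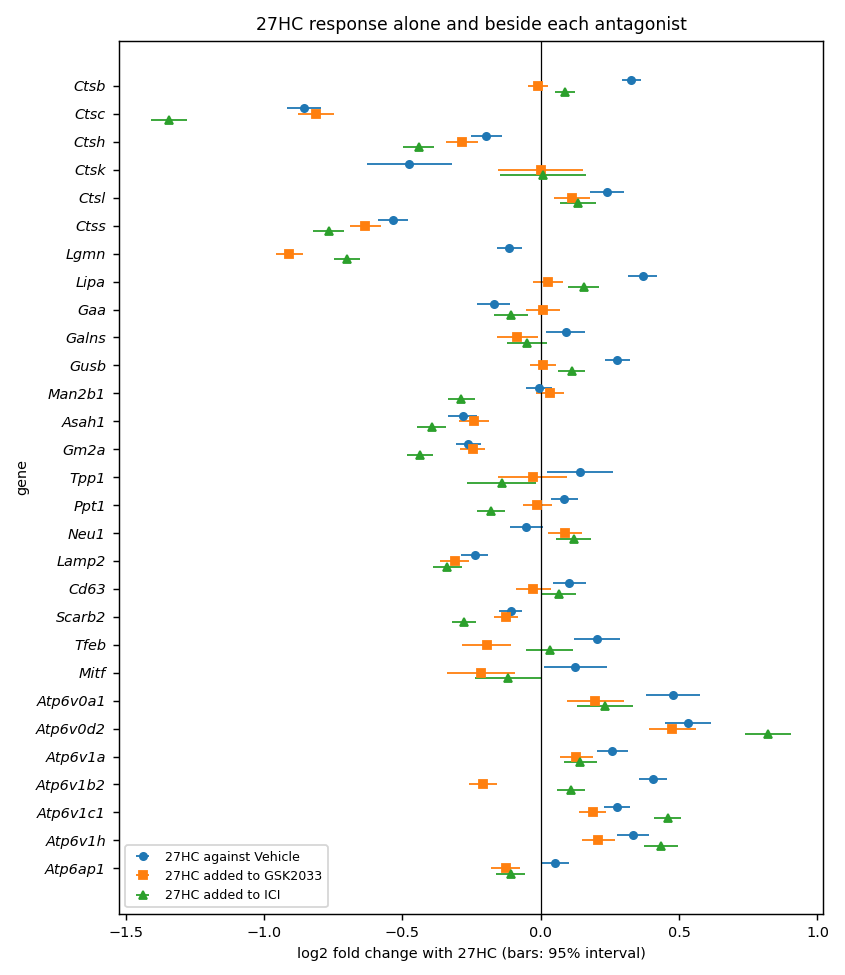
Log2 fold change with 27HC alone, on top of GSK2033 and on top of ICI, in the lysosomal genes whose interaction was called beside at least 1 antagonist, with 95% intervals from edgeR's fit. Lgmn, Lipa and Atp6v1b2 have lower values beside GSK2033 than alone, and Ctsk has higher values beside either antagonist.

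E2 was near Vehicle for most of the 45 genes. Those called were Lipa (log2 0.19 ± 0.026), Psap (log2 0.18 ± 0.018), Atp6v0d2 (log2 0.20 ± 0.042) and Gm2a (log2 0.09 ± 0.022) upward, and Gla (log2 -0.15 ± 0.030), Neu1 (log2 -0.14 ± 0.030), Galns (log2 -0.12 ± 0.036), Ctsc and Lgmn (log2 -0.08 ± 0.022) downward. A fit of the E2 and Vehicle libraries alone called 5 of the 45 genes. Of the 13089 genes tested in that fit, 212 were called higher and 273 lower. The Galns call was lost without any 1 of 8 of the 11 libraries (all but Vehicle replicate 2 and E2 replicates 2 and 5), and that of Lgmn without Vehicle replicate 4 or E2 replicate 1. ICI alone, by contrast, raised 23 members, led by Atp6v0d2 (log2 0.68 ± 0.041) and Lipa, and the difference between E2 and ICI was not tested.

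Beyond these genes, 99 others of the lysosome, of enzyme sorting and of the signals that control the MiT/TFE factors were listed, and 95 of them were tested. Against Vehicle 30 rose and 25 fell with 27HC (20.3% and 20.0% of all tested genes), 35 and 31 with GW3965 (23.1% and 21.1%), 34 and 28 with GW3965 plus the second compound (25.2% and 24.4%), 35 and 28 with GSK2033 (18.4% and 17.9%), 32 and 42 with GSK2033 plus 27HC (24.1% and 26.4%), 34 and 17 with ICI (13.9% and 12.5%), 36 and 39 with ICI plus 27HC (26.6% and 26.4%), and 5 and 3 with E2 (4.70% in either direction). Of the 31 further hydrolases 6 rose and 15 fell with 27HC, 6 and 19 with GW3965, 5 and 16 with GW3965 plus the second compound, 7 and 13 with GSK2033, 3 and 23 with GSK2033 plus 27HC, 7 and 11 with ICI, 5 and 25 with ICI plus 27HC, and 1 and 2 with E2, to be read against the same shares of all genes. Npc2, which hands cholesterol from the lysosomal lumen to the membrane, fell by 0.64 ± 0.030 with GW3965 on the log2 scale, while its partner Npc1 rose by 0.34 ± 0.022 with 27HC and 0.42 ± 0.022 with ICI plus 27HC. With GSK2033 plus 27HC, Pla2g15 (a lysosomal phospholipase) fell by 1.08 ± 0.033 on the log2 scale.

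Of the 10 further V-ATPase subunits tested, 4 rose and 0 fell with 27HC (20.3% and 20.0% of all tested genes), 5 and 2 with GW3965 (23.1% and 21.1%), 4 and 2 with GW3965 plus the second compound (25.2% and 24.4%), 8 and 0 with GSK2033 (18.4% and 17.9%), 7 and 1 with GSK2033 plus 27HC (24.1% and 26.4%), 5 and 0 with ICI (13.9% and 12.5%), 7 and 1 with ICI plus 27HC (26.6% and 26.4%), and 0 and 0 with E2 (4.70% in either direction). Tcirg1, the a subunit isoform of osteoclasts and macrophages, rose by 0.45 ± 0.041 with ICI plus 27HC. Clcn7, the chloride-proton exchanger of the lysosomal membrane, rose by 0.62 ± 0.025 with GSK2033. Of the 12 sorting genes, Igf2r (the large mannose 6-phosphate receptor) rose with 27HC by 0.55 ± 0.065 and with GW3965 by 0.66 ± 0.065 and fell with GSK2033 by 0.31 ± 0.067, and Sort1 (sortilin) rose by 0.55 ± 0.059 with GW3965 and fell by 0.44 ± 0.062 with GSK2033. Gnptab, which makes the mannose 6-phosphate tag, rose by 0.56 ± 0.047 with ICI plus 27HC. Among the 16 signalling genes, Rragd (a Rag GTPase that brings mTORC1 to the lysosome) rose with 7 of the 8 treatments, most with ICI plus 27HC (log2 1.45 ± 0.088 (SE), adjusted p = 8.2e-19) and GSK2033 plus 27HC (log2 1.22 ± 0.089 (SE), adjusted p = 3.8e-16), against 0.48 ± 0.092 with 27HC and 0.59 ± 0.092 with GW3965. Fnip2, a folliculin partner that acts on Rag GTPases, rose with ICI plus 27HC by 0.96 ± 0.029. With E2 the log2 difference of Rragd was 0.16 ± 0.094 (adjusted p = 0.42).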

How the data were processed

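Per the labels' protocols, RNA was extracted from BMDM, stranded libraries of polyadenylated RNA were made, and single reads were sequenced. The deposited table holds estimated counts per gene, made by the authors with kallisto 0.44.0 on GRCm38 (per the submitters' processing notes). Whether they were scaled for transcript length, or counted by strand, is not given in the sources used here.

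GENCODE M21 gave symbols and positions on GRCm38 for 24243 of the 24671 genes. Estimated counts were rounded, which changed no total by more than 133. Genes were kept with filterByExpr (13838), scaled by TMM, and fitted with edgeR 4.0.16 (R 4.3.3, robust quasi-likelihood) on all 46 libraries with 1 mean per group and 37 residual degrees of freedom, adjusted over all tested genes by Benjamini-Hochberg at 0.05. The biological coefficient of variation was 7.55%. The 95% intervals use the t quantile at 37 degrees of freedom, and log2 levels use CPM plus 0.1. The script was tested on simulated data, for 27HC against Vehicle only. It called 62% of 1.25-fold changes, 92% of 1.5-fold changes and 100% of 2-fold and 4-fold changes. There were 4 false calls among 13638 unchanged genes. A missing call therefore does not exclude a small change. No libraries of the same group were duplicates: the chi-square per degree of freedom between replicates was 3.91 to 12.2 over 95 pairs. Libraries of different groups were not compared in this way.

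The members and lists were chosen with earlier results of these data known. Named were, per comparison and class, up to 4 called members in each direction by size, 9 members (Tfeb, Tfe3, Mitf, Ctsd, Ctsk, Lipa, Lamp1, Atp6v0d1 and Atp6v0d2) in any comparison, and up to 3 called genes per direction of each further list with a mean of at least 1 CPM. Members outside that rule were named after their values were seen. Some genes of the further lists that the rule selects are not reported here. Alternatives were RLE and upper-quartile scaling, DESeq2 1.42.0, no filter, fits of the compared groups only, no mitochondrially encoded genes, a replicate block, and each library left out.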

Additional observations from a re-analysis of the deposited data

Results flagged for a closer look

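Among 405 sets of libraries (45 genes in 9 groups), 21 had 1 library that stood further from the others than Dixon's 95% limit allows, in 17 of the genes. Chance gives about 5% of such sets. Replicate 3 of ICI plus 27HC was the highest for 4 genes and replicate 4 of Vehicle for 3. In GW3965, the highest library stood apart for Atp6v1d (replicate 3, 104 CPM). In GW3965, the lowest library stood apart for Ctsb (replicate 3, 13068 CPM). In GSK2033, the lowest library stood apart for Ctsd (replicate 4, 9425 CPM), Lipa (replicate 2, 1555 CPM) and Atp6v1e1 (replicate 4, 177 CPM). In ICI plus 27HC, the highest library stood apart for Ctsd (replicate 3, 13111 CPM), Ctsz (replicate 3, 1531 CPM), Ppt1 (replicate 3, 102 CPM) and Cd63 (replicate 3, 753 CPM). In Vehicle, the highest library stood apart for Ctsl (replicate 6, 1532 CPM), Ctss (replicate 4, 3631 CPM), Lgmn (replicate 4, 1296 CPM), Hexa (replicate 4, 1058 CPM) and Scarb2 (replicate 5, 304 CPM). In Vehicle, the lowest library stood apart for Neu1 (replicate 6, 104 CPM). In GSK2033 plus 27HC, the lowest library stood apart for Smpd1 (replicate 2, 62.3 CPM) and Atp6ap1 (replicate 2, 509 CPM). In E2, the highest library stood apart for Scarb2 (replicate 5, 303 CPM). In E2, the lowest library stood apart for Mcoln1 (replicate 4, 36.6 CPM). In 27HC, the highest library stood apart for Atp6ap1 (replicate 3, 668 CPM). In 27HC, the lowest library stood apart for Atp6v1d (replicate 5, 87.8 CPM). Leaving out any of these libraries turned no direction.

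In 18 genes the effect of 27HC beside GSK2033 differed from its effect alone, by a test of the interaction in edgeR's fit (adjusted p under 0.05). Of all tested genes, 9.34% had a called interaction above 0 and 10.3% below 0. The log2 interactions below 0 were those of Lgmn (-0.79), Atp6v1b2 (-0.61), Tfeb (-0.40), Lipa (-0.34), Mitf (-0.34), Ctsb (-0.34), Atp6v0a1 (-0.28), Gusb (-0.27), Atp6ap1 (-0.18), Galns (-0.17), Cd63 (-0.13), Atp6v1a (-0.13), Atp6v1h (-0.13), Ctsl (-0.12) and Ppt1 (-0.097). Above 0 were Ctsk (0.48), Gaa (0.18) and Neu1 (0.14).

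Beside ICI the effect of 27HC differed in 24 genes, where 7.39% of all tested genes had a called interaction above 0 and 9.97% below 0. Below 0 were Lgmn (-0.59), Ctsc (-0.49), Atp6v1b2 (-0.30), Tpp1 (-0.28), Man2b1 (-0.28), Ppt1 (-0.26), Ctsh (-0.24), Atp6v0a1 (-0.24), Mitf (-0.24), Ctsb (-0.24), Ctss (-0.23), Lipa (-0.21), Gm2a (-0.18), Tfeb (-0.17), Scarb2 (-0.17), Gusb (-0.17), Atp6ap1 (-0.16), Atp6v1a (-0.12), Asah1 (-0.11) and Lamp2 (-0.099), and above 0 Ctsk (0.48), Atp6v0d2 (0.29), Atp6v1c1 (0.18) and Neu1 (0.17). Of these 42 calls, 10 were lost without at least 1 library, each with a log2 interaction of at most 0.24 in size: beside GSK2033 Ctsl, Ppt1, Cd63, Atp6v1a and Atp6v1h (without any 1 of 11, 15, 8, 2 and 5 of the 21 libraries in turn), and beside ICI Asah1, Lamp2, Tfeb, Mitf and Atp6v1a (6, 15, 11, 9 and 14).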

How the results depend on the processing

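No member result of 720 (45 genes in 16 comparisons) reversed under RLE or upper-quartile scaling, DESeq2, no filter on low counts, mitochondrially encoded genes left out, a fit of the compared groups only, the replicate block, or the omission of single libraries. Of 486 called results, 432 kept their call under every one of these, and 54 lost it under at least 1, all with a log2 difference of at most 0.24 in size. The count of called members left its 1.5-fold range once: for E2 against Vehicle it was 9 over all groups and 5 in a fit of these 2 groups only. That fit called 212 of 13089 tested genes higher and 273 lower. Without single libraries the counts ran 30 to 34 for 27HC against Vehicle, 35 to 38 for GW3965, 36 to 37 for GW3965 plus the second compound, 32 to 36 for GSK2033, 38 to 41 for GSK2033 plus 27HC, 32 to 34 for ICI, 36 to 38 for ICI plus 27HC and 7 to 10 for E2. They ran 26 to 29 for 27HC against GW3965, 19 to 22 for the second compound added to GW3965, 37 to 40 for GSK2033 added to 27HC, 27 to 29 for 27HC added to GSK2033, 32 to 33 for ICI added to 27HC, 31 to 33 for 27HC added to ICI, 13 to 20 for the interaction with GSK2033 and 20 to 25 for that with ICI.

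Deviations of libraries with the same replicate number in their titles correlated at -0.07 to 0.10 over 180 pairs, with 0 pairs over 0.1. Of 46 libraries, 12 correlated best with their own number. Yet replicate 1 of every group held a smaller mitochondrially encoded share of counts than replicate 5. With GSK2033 plus 27HC these shares were 1.21% and 1.51%. Over all tested genes, the replicate block changed the E2 calls from 305 higher and 345 lower to 434 and 409. A batch shared by replicate number was not tested further. With the replicate block the counts of called members were 35 for 27HC, 37 for GW3965, 37 for GW3965 plus the second compound, 36 for GSK2033, 40 for GSK2033 plus 27HC, 33 for ICI, 36 for ICI plus 27HC and 11 for E2 against Vehicle. Over the 720 results the block lost 4 calls and added 19.

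With at least 19354093 counts in each library, depth limits the least abundant members most: Ctsk, at a Vehicle mean of 13.3 CPM, and Tfeb, at 30.8 CPM. Changes of a few percent passed the test in abundant genes such as Psap and Ctsd, so a call alone says little about size. Values of genes whose exons overlap another gene's (Ctsa, Ctsb, Ctsd, Ctsl, Glb1, Hexa, Lamp1 and Ppt1 among them) are uncertain, to unlike degrees. Mean counts were 15442 for Cap1 against 2537 for Ppt1 and 13211 for Pltp against 25854 for Ctsa. For Fdft1 they were 364 against 274760 for Ctsb, and for Grtp1 108 against 47260 for Lamp1.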
